A study of Macaca mulatta with 12 samples.

Results

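PAEP, SCG3 and CHI3L1 are 3 genes for secreted proteins whose liver RNA was higher after an ethanol induction in rhesus macaques. They were picked by name and chosen by their measured change from baseline to post-induction in the same libraries, so that change is described below without a test. PAEP and SCG3 were selected on the mean change of both animal classes and CHI3L1 on the change in one class. The 3 genes are among 23993 gene identifiers of the transcript table, all 3 passed the filter on low counts, and 18373 genes were tested in all. The symbol PAEP stood on 2 identifiers of the name table, of which 1 was in the count table.

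RNA was sequenced from liver biopsies of 6 male rhesus macaques of about 4.6 years. Each animal gave a biopsy before ethanol (baseline) and another at the end of a 90-day induction (post-induction), in which the daily dose was 0.5 g/kg, then 1 g/kg and last 1.5 g/kg, each held for 30 days. By their drinking in 12 months of free access that followed, 3 animals were classed as very heavy drinkers (VHD) and 3 as light drinkers (LD). The later intake is given per class, as 4.0 g per kg per day for VHD and 1.5 g per kg per day for LD. The 4 groups of 3 libraries are therefore VHD post-induction, LD post-induction, VHD baseline and LD baseline. The class names refer to later drinking, and the induction doses were alike for all animals. No group without ethanol was sampled at the second biopsy, so the effects of ethanol and of time between biopsies cannot be told apart.

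PAEP encodes glycodelin, also called progestagen-associated endometrial protein, a secreted glycoprotein of the lipocalin family that is best known from the secretory endometrium and early pregnancy. SCG3 encodes secretogranin III, a granin of endocrine and neural cells that binds cholesterol-rich membranes and helps to sort chromogranin A into dense-core secretory granules. CHI3L1 encodes a secreted chitinase-like glycoprotein, YKL-40 in humans, which binds chitin but does not cut it. It is made by macrophages, neutrophils and liver cells, and its level in human blood is used as a marker of inflammation and liver fibrosis.

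The build is Mmul_8.0.1, and positions are those of the count table. PAEP (ENSMMUG00000017915) spans chr15:2796810-2812179, minus strand, with 2 transcripts. SCG3 (ENSMMUG00000017435) spans chr7:28061575-28097640 and CHI3L1 (ENSMMUG00000008711) chr1:163450627-163460212, both plus strand with 1 transcript. The genes thus lie on 3 different chromosomes. No other gene of the table overlapped them on either strand. Whether starts count from 0 or 1 is not given in the sources used here, so a start may be off by 1 base.

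Total counts ran from 5970033 to 25060718 per library. Levels are CPM, counts scaled to a common library total with TMM factors, and are not per length, so they are compared between libraries and not between the 3 genes. On component 1 of the log2 CPM values (31.4% of the variance) 5 libraries had positive scores and the other 7 negative scores. The division used below follows this sign and not a gap. Its nearest scores on either side were 7.22 (VHD post-induction 1) and -5.61 (VHD baseline 3), while the next positive score was 45.2. The 5 were VHD post-induction 1 and 3, LD post-induction 2 and 3 and VHD baseline 2, so the division partly follows the time of biopsy. Component 2 (20.6%) set VHD post-induction 2 (-82.3) and VHD baseline 3 (-92.7) furthest from the rest, which the titles give to different animals. All changes per animal below rest on pairs taken from the titles alone. In VHD animal 2 the deviations of the paired libraries from their group means had a correlation of -0.354. Whether the titles join libraries of the same animal was not tested. In bulk tissue a different number of cells of a type and a different amount of RNA per cell cannot be told apart.

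PAEP, the lipocalin, was higher post-induction in 6 of 6 animals. Its levels were 11.2, 54.8 and 18.05 CPM in VHD post-induction libraries 1, 2 and 3, against 1.76, 2.89 and 2.96 CPM in VHD baseline libraries 1, 2 and 3. In LD animals 1, 2 and 3 they were 8.21, 7.95 and 1.53 CPM post-induction, against 1.21, 1.33 and 0.862 CPM at baseline. Within each class the post-induction libraries lay above all baseline libraries, while LD post-induction 3 lay below all 3 VHD baseline libraries and was the lowest post-induction library. VHD post-induction 2 was the highest of all 12 libraries.

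The ratio of post-induction to baseline PAEP was 6.35, 18.9 and 6.09 in VHD animals 1, 2 and 3, and 6.78, 5.99 and 1.78 in LD animals 1, 2 and 3. Exact binomial 95% intervals of these ratios cover counting error only and leave out differences between biopsies. That of LD animal 3 was 0.789 to 4.12, from 16 counts post-induction and 12 counts at baseline. VHD animal 2, with 1001 counts against 47, had an interval of 14.1 to 26.0. The interval was 3.73 to 11.4 in VHD animal 1, 4.78 to 7.85 in VHD animal 3, 3.21 to 17.1 in LD animal 1 and 3.75 to 10.02 in LD animal 2, so that of LD animal 1 overlapped that of VHD animal 2. The fitted log2 fold changes were 3.45 ± 0.67 in VHD, 2.39 ± 0.68 in LD and 2.92 ± 0.48 over both classes (SE). Without VHD post-induction 2 the value in VHD was 2.51.

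Nearly all PAEP counts were assigned to the longer transcript, ENSMMUT00000047128. The shorter one, ENSMMUT00000025172, from 2797756 to 2802593, took 85.1 estimated counts in VHD post-induction 2, or 8.50% of the gene. In LD post-induction 3 it took 2.49 counts, or 15.6%, and in LD baseline 2 it took 1.36 counts, or 6.46%. In the other 9 libraries it took at most 2.60 counts. The difference between times therefore stood mainly in the counts of the longer transcript, with 915.9 counts in VHD post-induction 2, against 46.6 in VHD baseline 2.

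SCG3, the granin, was also higher post-induction in 6 of 6 animals. Its levels were 4.83, 6.24 and 14.7 CPM in VHD post-induction libraries 1, 2 and 3, against 1.86, 0.185 and 0.889 CPM in VHD baseline libraries 1, 2 and 3. In LD animals 1, 2 and 3 they were 14.6, 8.21 and 2.396 CPM post-induction, against 1.04, 0.569 and 1.22 CPM at baseline. All 6 post-induction libraries lay above all 6 baseline libraries. The highest post-induction levels, in VHD animal 3 and LD animal 1, were nearly the same, and LD animal 3 was again the lowest post-induction.

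Baseline levels of SCG3 rested on few reads, between 3 and 24 counts per library, while post-induction libraries held 25 to 325. The ratio was 2.59 in VHD animal 1 (interval 1.43 to 4.86) and 16.5 in VHD animal 3 (10.9 to 26.1). In VHD animal 2, with 114 counts against 3, it was 33.8 with an interval of 11.3 to 166.3. The LD animals 1, 2 and 3 had ratios of 14.0 (6.37 to 38.6), 14.4 (7.36 to 32.3) and 1.96 (1.02 to 3.87). Animals thus fell into 4 with ratios of 14.0 or more and 2 with ratios under 3, VHD animal 1 and LD animal 3. The fitted log2 fold changes were 3.20 ± 0.78 in VHD, 3.17 ± 0.79 in LD and 3.19 ± 0.55 over both classes (SE).

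CHI3L1, the chitinase-like protein, was higher post-induction in 5 of 6 animals. Its levels were 2102, 1293 and 1560 CPM in VHD post-induction libraries 1, 2 and 3, against 580.1, 353.1 and 376.4 CPM in VHD baseline libraries 1, 2 and 3. In LD animals 1, 2 and 3 they were 1909, 512.3 and 838.3 CPM post-induction, against 427.2, 654.6 and 650.8 CPM at baseline. In VHD animals the 2 times did not overlap, while in LD animals they did, and LD animal 2 was lower post-induction.

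With 2469 to 36030 counts per library, counting error of CHI3L1 was small beside the differences between animals. The VHD animals 1, 2 and 3 had ratios of 3.62, 3.66 and 4.15, a log2 change of 1.93 ± 0.11 (SD, n = 3). CHI3L1 was chosen on the change in VHD, so nothing is read from how close these animals lie. The LD animals 1, 2 and 3 had ratios of 4.47, 0.783 and 1.29, a log2 change of 0.72 ± 1.30 (SD, n = 3). LD animal 1 therefore had the highest ratio of the 6 animals, and the other 2 LD animals the lowest. The fitted log2 fold changes were 1.92 ± 0.47 in VHD, 0.91 ± 0.46 in LD and 1.42 ± 0.33 over both classes (SE). Without LD post-induction 1 the value in LD was 0.22.

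**Figure D1:**
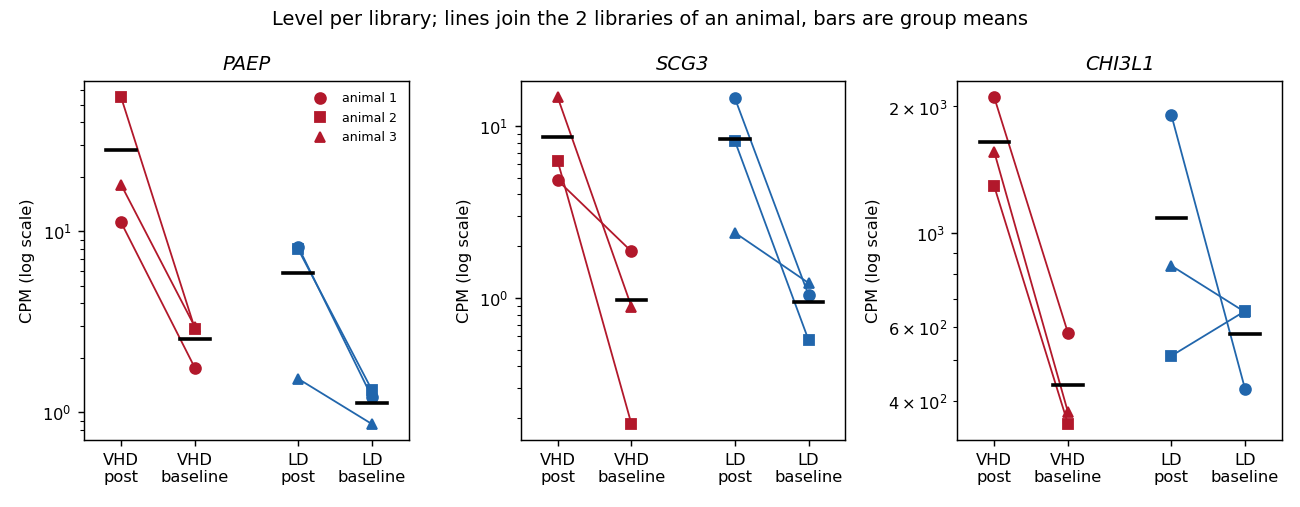
Level of PAEP, SCG3 and CHI3L1 in each of the 12 libraries in CPM on a log axis, by class and time, with VHD in red and LD in blue. Lines join the 2 libraries of an animal and black bars are group means. All lines fall from left (post-induction) to right (baseline) except that of LD animal 2 in the CHI3L1 panel, with 512.3 CPM post-induction and 654.6 CPM at baseline.

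**Figure D2:**
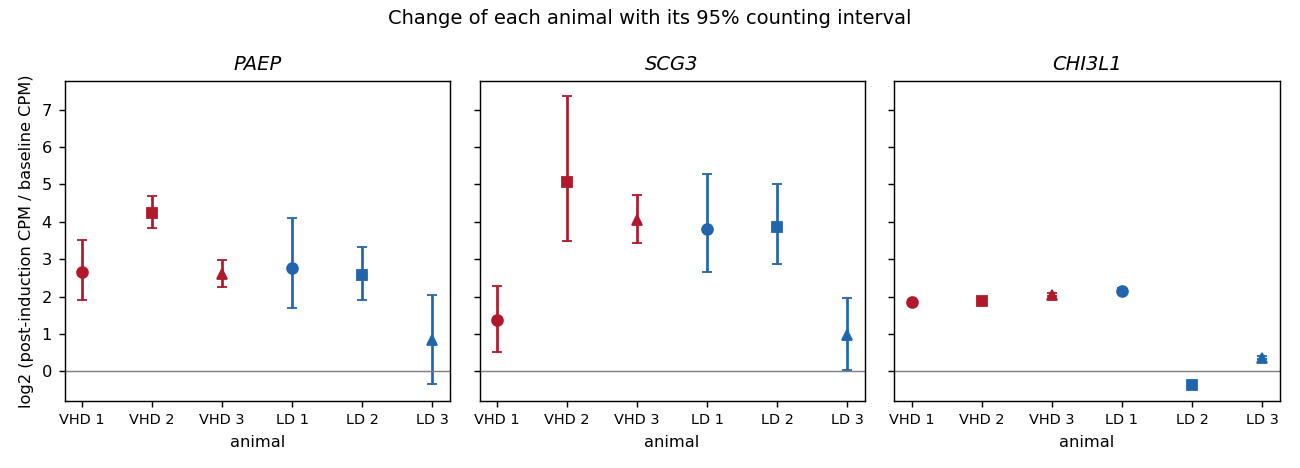
Log2 ratio of post-induction to baseline CPM for each animal, with 95% exact counting intervals that leave out differences between biopsies. The 3 VHD animals lie close together for CHI3L1 (1.86, 1.87 and 2.05), which was chosen on its change in VHD, and LD animal 1 (2.16) lies above them. VHD animal 2 is highest for PAEP (4.24) and for SCG3 (5.08).

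The shares of all tested genes with the same patterns are given beside the counts, and since the genes were chosen on this contrast nothing is read from them. Post-induction libraries lay above baseline libraries in VHD for all 3 genes and for 2.8% of all genes, and in LD for 2 of the 3 and for 5.5% of all genes. For SCG3 all 6 post-induction libraries lay above all 6 baseline libraries, as they did for 0.142% of genes. A higher level in 6 of 6 animals was found for 2 of the 3, and for 2.67% of genes. In edgeR's quasi-likelihood test of the mean change 49 of 18373 genes were called at an adjusted p under 0.05 (0.267%), and 3 of them were higher post-induction (0.0163%). With a term for the animal 4 genes were called.

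The animals with a large change differed from gene to gene. LD animal 3 had the smallest change of PAEP and SCG3 and a small one of CHI3L1. LD animal 2 had ratios of 5.99 in PAEP and 14.4 in SCG3 but of 0.783 in CHI3L1. VHD animal 1 had ratios of 3.62 in CHI3L1 and 6.35 in PAEP, and of 2.59 in SCG3. Across the 12 libraries the Pearson correlation of log2 CPM was 0.71 for PAEP with SCG3, 0.63 for PAEP with CHI3L1 and 0.77 for SCG3 with CHI3L1. These values share the change with time on which the genes were chosen. About the 4 group means they were 0.29, -0.17 and 0.35.

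On either side of the division on component 1 the times differed as follows. Among the 7 libraries PAEP had 8.21 and 54.8 CPM post-induction, against 0.862 to 2.96 CPM in 5 baseline libraries. SCG3 had 14.6 and 6.24 CPM post-induction there, against 0.569 to 1.86 CPM, and CHI3L1 1909 and 1293 CPM, against 376.4 to 654.6 CPM. The times did not overlap for the 3 genes among these 7, and the share of all genes with this pattern was not counted. Since the genes were chosen on the change with time, nothing is read from it. The 5 libraries hold 1 baseline library, VHD baseline 2. PAEP had 1.53 to 18.05 CPM in their 4 post-induction libraries, against 2.89 CPM in that one. SCG3 had 2.396 to 14.7 CPM, against 0.185 CPM, and CHI3L1 512.3 to 2102 CPM, against 353.1 CPM. With a term for the division the mean log2 changes were 3.18 for PAEP, 3.76 for SCG3 and 1.67 for CHI3L1. Without VHD post-induction 2 and VHD baseline 3 they were 2.51, 3.27 and 1.44.

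The classes were compared next, at each time, a contrast that did not choose the genes but shares libraries with the one that did. PAEP was the gene with the widest gap between the classes. It averaged 28.0 ± 23.5 CPM in VHD post-induction and 5.90 ± 3.78 CPM in LD post-induction, and 2.54 ± 0.675 CPM in VHD baseline and 1.13 ± 0.242 CPM in LD baseline (SD, n = 3 each). At both times the 3 VHD libraries lay above the 3 LD libraries, as they did for 0.256% of all genes at both times, 2.67% post-induction and 4.13% at baseline. The log2 difference of VHD from LD was 2.24 ± 0.63 post-induction (SE, 95% interval 0.88 to 3.597, adjusted p = 0.9994 by edgeR). At baseline it was 1.18 ± 0.68 (interval -0.28 to 2.64, adjusted p = 0.9998 by edgeR). Neither difference passed after adjustment over all genes. The intervals are not adjusted in this way, and the unadjusted p of the post-induction difference was 0.00341 by edgeR. Without VHD post-induction 2 the post-induction difference was 1.30.

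In the same edgeR fit no gene was called between the classes post-induction (0%). At an unadjusted p under 0.05 there were 448, PAEP among them, and 1 gene was called by DESeq2. At baseline 1 gene was called (0.00544%), which was lower in VHD and was none of the 3. The order of PAEP levels was VHD post-induction, LD post-induction, VHD baseline and LD baseline. Of neighbours in this order LD post-induction and VHD baseline overlapped, through LD post-induction 3.

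The mean levels of SCG3 lay close together in the 2 classes, with wide intervals. SCG3 averaged 8.58 ± 5.32 CPM in VHD post-induction and 8.39 ± 6.09 CPM in LD post-induction, and 0.979 ± 0.843 CPM in VHD baseline and 0.943 ± 0.336 CPM in LD baseline (SD, n = 3 each). The log2 difference was 0.03 ± 0.69 post-induction (SE, interval -1.44 to 1.51, adjusted p = 0.9994 by edgeR). At baseline it was 0.006 ± 0.85 (interval -1.83 to 1.84, adjusted p = 0.9998 by edgeR). The intervals leave room for differences of either sign, and the sign turned when some single libraries were left out, to -0.61 post-induction without VHD post-induction 3 and -0.71 at baseline without VHD baseline 1. The class values overlapped at both times, so the order of the 4 groups was resolved only between times.

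CHI3L1 averaged 1652 ± 412.1 CPM in VHD post-induction and 1087 ± 730.8 CPM in LD post-induction (SD, n = 3 each). At baseline the order was the other way, with 436.5 ± 124.9 CPM in VHD and 577.6 ± 130.2 CPM in LD. The log2 difference of VHD from LD was 0.60 ± 0.45 post-induction and -0.40 ± 0.45 at baseline (SE). Both are given without a test, since CHI3L1 was chosen on the VHD response. That choice favours a higher VHD level post-induction and a lower one at baseline, so nothing is read from the 2 directions. Without LD post-induction 1 the post-induction difference was 1.29. Classes overlapped at both times. LD post-induction, with a range of 512.3 to 1909 CPM, overlapped with each of the other groups.

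The response of VHD minus that of LD was 1.06 ± 0.92 for PAEP on the log2 scale (SE, interval -0.91 to 3.03, adjusted p = 1 by edgeR). For SCG3 it was 0.03 ± 1.05 (interval -2.24 to 2.30, adjusted p = 1 by edgeR). Neither difference passed. Without VHD post-induction 2 the PAEP value was 0.12, and 0.25 when VHD baseline 3 was left out as well. For CHI3L1, chosen on the VHD response, the value of 1.01 ± 0.64 is given without a test, and it was 1.69 without LD post-induction 1. Over all genes edgeR called 0 for this difference (0%), with 239 at an unadjusted p under 0.05, and DESeq2 called 1.

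**Figure D3:**
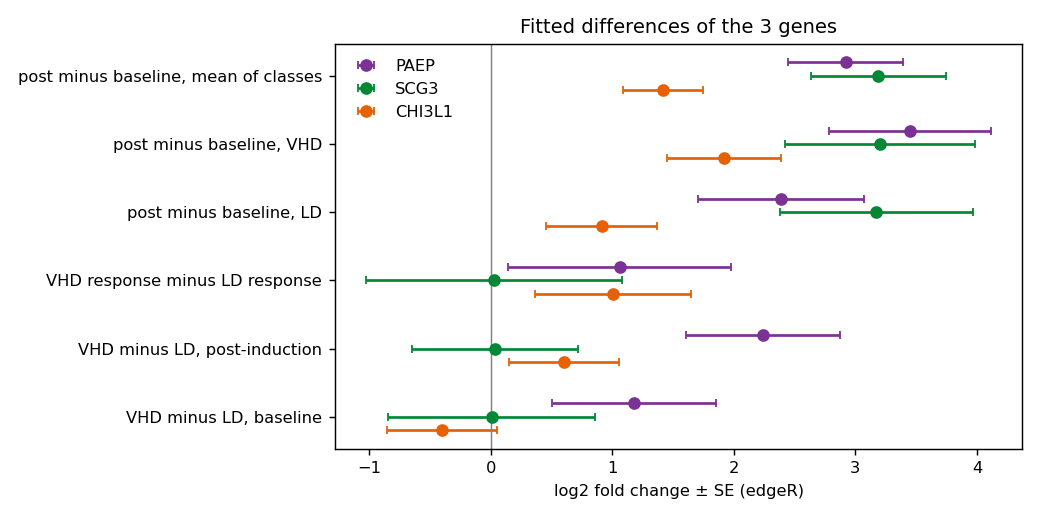
Log2 fold changes with SE from the edgeR fit for PAEP, SCG3 and CHI3L1 in 6 comparisons. The changes with time, on which the genes were chosen, are all above 0, and of the class differences that of PAEP post-induction (2.24) is the largest.

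Genes of the same families and of related pathways were not called by edgeR, while DESeq2 called some of them. The 6 lists of 70 related genes, of which 59 were in the table and 57 were tested, were set beside the 3 genes, and the median change of all genes was 0.07 on the log2 scale, with 57.4% of all genes positive. In the mean change edgeR called none of the 57 (background 0.267%), 8 had an unadjusted p under 0.05, against 1454 of all 18373 genes, and DESeq2 called 1 higher and 3 lower, against 266 of 16182 genes in either direction.

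Of the granins and the enzymes that process prohormones, which act in the same granules as SCG3, 11 of 13 were positive and the median log2 change was 0.30. Of the other granins CHGA averaged 0.952 CPM post-induction and 0.747 CPM at baseline, CHGB 1.86 and 1.84 CPM, and SCG2 0.410 and 0.556 CPM. SCG5 averaged 0.261 CPM post-induction and 0.410 CPM at baseline, and VGF 4.521 and 3.515 CPM. PCSK1, a convertase that cuts prohormones, averaged 8.23 CPM post-induction and 2.80 CPM at baseline and was higher in 5 of 6 animals (log2 change 1.60 ± 0.39 SE, adjusted p = 0.155 by edgeR). It was the gene of this list that DESeq2 called. Of the best expressed members PAM, which amidates peptides, had a log2 change of 0.09 ± 0.20 (SE, adjusted p = 0.964 by edgeR), and CADPS2, which primes granules for release, one of 0.60 ± 0.28 with a higher level in 6 of 6 animals (adjusted p = 0.641). SYT7, a calcium sensor of release, had 0.12 ± 0.30 and CADPS 0.56 ± 0.28.

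Of the lipocalins, carriers of small hydrophobic molecules, 4 of 10 were positive and the median was -0.08. RBP4, the retinol carrier of plasma, averaged 14520 CPM post-induction and 15240 CPM at baseline (log2 change -0.10 ± 0.33 SE, adjusted p = 0.978 by edgeR). AMBP had a log2 change of -0.32 ± 0.34 and APOM, an apolipoprotein, one of -0.07 ± 0.41. ORM1, an acute phase protein, averaged 1467 CPM post-induction and 2785 CPM at baseline (-0.91 ± 0.42, adjusted p = 0.63). LCN2, induced in liver injury, had 0.22 ± 0.57.

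Of the other genes of glycoside hydrolase family 18, which holds CHI3L1, 5 of 6 were positive and the median was 0.29. CHIT1, the active chitinase of macrophages, averaged 4.37 CPM post-induction and 2.59 CPM at baseline (0.74 ± 0.36 SE, adjusted p = 0.653 by edgeR). CTBS, a lysosomal enzyme, had a log2 change of -0.08 ± 0.27, CHID1 one of 0.22 ± 0.40 and OVGP1 one of 0.36 ± 0.34. Proteins reported to bind CHI3L1 had a median of 0.03 with 5 of 6 positive. Among them SDC1, a cell surface proteoglycan, averaged 444.0 CPM post-induction and 293.3 CPM at baseline and was higher in 6 of 6 animals (0.60 ± 0.24 SE, adjusted p = 0.546 by edgeR). TMEM219 had 0.01 ± 0.32, IL13RA2 0.05 ± 0.24 and CD44 -0.22 ± 0.29.

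Steroid receptors and genes that steroids induce were listed because PAEP responds to progestins in the human endometrium. Of these 8 of 9 were positive and the median was 0.49. PGR, the progesterone receptor, averaged 497.8 CPM post-induction and 334.4 CPM at baseline (0.59 ± 0.48 SE, adjusted p = 0.821 by edgeR). PER1, a clock gene, had a log2 change of 0.49 ± 0.29 and FKBP5, a glucocorticoid target, one of -0.06 ± 0.28.

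The list of STAT3 and NF-kappaB signalling, pathways through which cytokines raise CHI3L1 in cultured cells, had a median of -0.49, with 10 of 13 negative. STAT3 averaged 70.9 CPM post-induction and 163.8 CPM at baseline and was higher in 0 of 6 animals (-1.19 ± 0.27 SE, adjusted p = 0.11 by edgeR). RELB, a subunit of NF-kappaB, had a log2 change of -1.46 ± 0.33 (adjusted p = 0.108) and RELA one of -0.73 ± 0.20 (adjusted p = 0.236). DESeq2 called these 3 lower. NFKBIA, JAK1 and TNFRSF1A had -0.57 ± 0.35, -0.30 ± 0.23 and -0.49 ± 0.26.

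**Figure D4:**
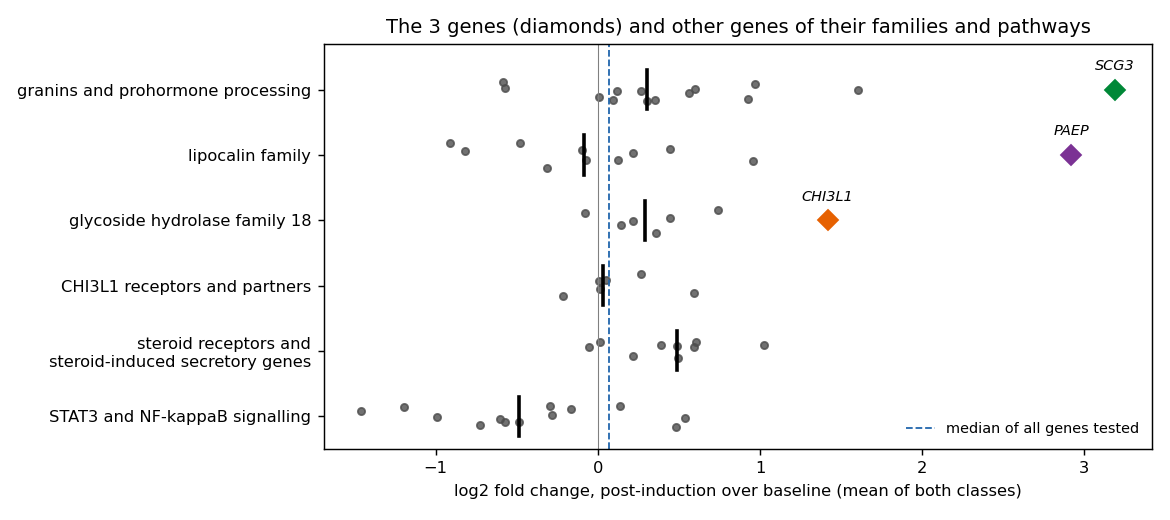
Mean log2 change from baseline to post-induction of PAEP, SCG3 and CHI3L1 (diamonds, in the row of their family) and of 57 related genes (points), with the median of each list as a black bar and that of all genes (0.07) as a dashed line. The largest value among the points is that of PCSK1 (1.60), and the lowest that of RELB (-1.46).

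The nearest tested genes with a symbol on either side of each gene were not called by edgeR. Next to PAEP lie GLT6D1, 60468 bases below, with a log2 change of -0.03 ± 0.61 (SE), and LCN1, a lipocalin 7469 bases above on the same strand, with 0.44 ± 1.11 (adjusted p = 0.997 and 0.971 by edgeR). LCN1 averaged 1.61 CPM post-induction and 2.34 CPM at baseline, and the sign of its fitted value differs from that of these means. Next to SCG3 lie DMXL2, 57780 bases below (0.23 ± 0.25, adjusted p = 0.886), and LYSMD2, 4072 bases above (-0.74 ± 0.40, adjusted p = 0.707). Next to CHI3L1 lie CHIT1, 28463 bases below, and MYBPHL, 2183 bases above (0.40 ± 0.38, adjusted p = 0.859).

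Markers of the cell types that a liver biopsy can hold were summed per library. The 10 lists named 88 genes, of which 71 were in the table and 69 were tested. In the mean change edgeR called none, 4 had an unadjusted p under 0.05, against 1454 of 18373 genes, and DESeq2 called S100A8, which was lower, against 266 of 16182 genes. Hepatocyte markers summed to 144600 to 257800 CPM post-induction and 135400 to 252700 CPM at baseline, the highest of the 10 sums, as the labelled tissue would have.

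Neuroendocrine and neural markers, cells in which SCG3 is usually made, summed to 16.8 to 48.1 CPM post-induction and 17.8 to 82.9 CPM at baseline and were higher in 2 of 6 animals. SNAP25 had the highest level in this sum, with a mean of 14.5 CPM post-induction and 21.9 CPM at baseline. Of the 8 tested genes of the list 4 had positive fitted values, with a median of 0.03 on the log2 scale. Macrophage markers summed to 86.2 to 234.8 CPM post-induction and 100.7 to 255.0 CPM at baseline, higher in 3 of 6 animals. Neutrophil markers summed to 8.21 to 23.9 CPM post-induction and 11.1 to 36.1 CPM at baseline, higher in 1 of 6. Their part in the change of the 3 genes was not tested. Stellate cell and fibroblast markers (104.2 to 241.6 CPM post-induction, 92.7 to 196.1 CPM at baseline) were higher in 2 of 6 animals, and endothelial markers in 4 of 6. T and NK cell markers and those of B and plasma cells were each higher in 4 of 6.

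The summed cholangiocyte and erythroid markers were higher post-induction in most animals, though edgeR called no marker of either list. The cholangiocyte list of 8 genes summed to 45.7 to 99.9 CPM post-induction and 34.3 to 72.7 CPM at baseline and was higher in 6 of 6 animals, by 0.08 to 0.69 on the log2 scale. Of its genes 6 of 8 had positive fitted values over both classes, and 4 of 8 within VHD. The erythroid list of 7 genes summed to 8.90 to 21.2 CPM post-induction and 5.73 to 15.1 CPM at baseline and was higher in 5 of 6, with all 7 fitted values positive. EPCAM, the leading cholangiocyte marker, averaged 34.5 CPM post-induction and 23.8 CPM at baseline. Their part in that change was not tested either. Between the classes at baseline, neutrophil markers summed to 14.7 to 36.1 CPM in VHD and 11.1 to 13.1 CPM in LD. PAEP was higher in VHD there too, a difference that did not pass. All 6 neutrophil, all 8 macrophage and all 4 T and NK cell markers had positive fitted differences of VHD from LD at baseline. Their medians were 0.91, 0.55 and 0.66 on the log2 scale. All 8 hepatocyte markers had negative ones, with a median of -0.23. Of all genes 56.6% were positive in this comparison, with a median of 0.07. No marker of these lists was called by edgeR between the classes at baseline. The macrophage, T and NK cell and hepatocyte sums overlapped between the classes. The part of these lists in the PAEP difference was not tested. Post-induction the neutrophil sums overlapped, at 9.94 to 23.9 CPM in VHD and 8.21 to 14.0 CPM in LD.

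**Figure D5:**
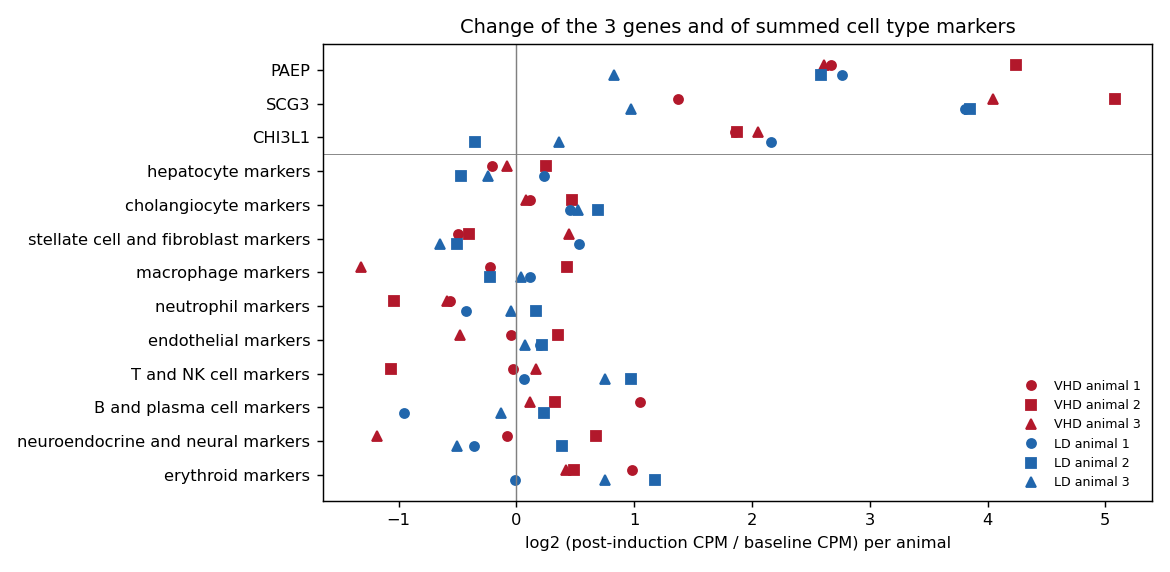
Log2 ratio of post-induction to baseline CPM in each animal for the 3 genes (top) and for summed markers of 10 cell types, VHD in red and LD in blue. Most points of the 3 genes are above the lists and lie beyond the range of the marker sums, which runs from -1.32 to 1.18. The 3 genes were chosen for their change with time and are single genes set beside sums, so nothing is read from this.

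The genes most like each of the 3 over the 12 libraries were ranked by Pearson correlation of log2 CPM, as a description. They share the library and the change with time. For PAEP they were ARHGAP6 (0.93), DAO, the D-amino acid oxidase (0.89), SHD (0.88), TBC1D10A (0.88) and GATD3 (0.88). DAO ranged from 5.82 to 99.4 CPM and averaged 34.1 CPM post-induction and 10.5 CPM at baseline (log2 change 1.53 ± 0.41 SE, adjusted p = 0.224 by edgeR). ARHGAP6 stayed between 0.253 and 1.48 CPM.

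For SCG3 the nearest patterns were those of HEBP1, a heme-binding protein (0.89), HUWE1, a ubiquitin ligase (0.87), GNPAT, an enzyme of ether lipid synthesis in peroxisomes (0.86), RSRP1 (0.85) and NEIL2, a DNA repair glycosylase (0.85). RSRP1 averaged 11.9 CPM post-induction and 4.50 CPM at baseline (1.39 ± 0.33 SE, adjusted p = 0.147 by edgeR), and HUWE1 72.1 and 55.9 CPM. For CHI3L1 they were ITGB5, an integrin subunit (0.90), MYH14, a myosin heavy chain (0.90), CALM3, a calmodulin gene (0.89), SEC14L4 (0.89) and LARS2, the mitochondrial leucyl-tRNA synthetase (0.88). CALM3 averaged 100.5 CPM post-induction and 70.5 CPM at baseline (0.52 ± 0.19 SE, adjusted p = 0.48 by edgeR). No gene stood among the 5 nearest of more than 1 of the 3, and edgeR called none of those named.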

How the data were processed

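The deposited table of expected counts per Ensembl transcript (40611 transcripts, 40.1% of values whole) was used. The submitters' processing notes name Partek, Bowtie, BWA and Mmul_8.0.1. Their versions and roles and the annotation release: not given in the sources used here. The deposited normalized table holds signal values by the authors, which equal the counts after multiplication by 1 factor for each library, and served only in alternatives. Per the labels, libraries came from 500 ng of total RNA with the NEXTFLEX Combo-Seq kit, with reads of 76 bases. Counts were summed per gene identifier and rounded, filtered with filterByExpr, scaled by TMM and fitted in edgeR 4.0.16 (R 4.3.3) with 1 mean per group over 12 libraries, the robust quasi-likelihood test and a threshold of 0.05 on p-values adjusted by Benjamini-Hochberg. SE is the log2 fold change divided by the square root of F. The fit was also run on simulated data with planted changes. Those data had independent libraries, without the pairing or the division of the real ones.

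The microRNA tables were not used here.

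The members and lists were chosen with earlier results of these data known. Named genes are the 3 members, their 5 most correlated genes with a symbol (prior count of 2), list genes called or among the 4 best expressed of a list, and, outside this rule, genes named for position, family, tool calls or a marker role. Libraries of 1 animal are paired by the titles. The correlation of their deviations from the group means ran from -0.354 (VHD animal 2) to 0.406 (VHD animal 1). Alternatives were DESeq2 1.42.0, limma 3.58.1 on log2 of the normalized values plus 1 or 0.1, other factors and filters, blocks, transcripts and left-out libraries; 2 were chosen after seeing the data.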

Additional observations from a re-analysis of the deposited data

How the results depend on the processing

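The fitted change with time of each of the 3 genes was above 0 in every alternative run, over both classes and within each. Over both classes it ran from 2.09 to 3.18 for PAEP, 2.09 to 3.76 for SCG3 and 1.07 to 1.67 for CHI3L1 on the log2 scale. In VHD, leaving out 1 library gave 2.508 to 3.822 for PAEP and 1.704 to 2.177 for CHI3L1, and a term for the 5 and 7 libraries gave 2.176 for CHI3L1. For PAEP and SCG3 no class difference passed, with adjusted p from 0.5439 to 1 for PAEP post-induction. None of the tested differences of responses passed under any setting. The class differences of CHI3L1 are given without a test. The SCG3 values near 0 turned sign: its class difference at baseline was -0.004 with RLE factors, -0.155 with the title number as a replicate block, and -0.052 and -0.3 with limma-trend on deposited values plus 1 and 0.1. Its difference of responses was -0.014 with DESeq2. Leaving out 1 library gave -0.714 to 0.507 at baseline, -0.612 to 0.691 post-induction and -0.599 to 0.744 for the difference of responses. The cause was not tested. The 5 and 7 library term and the fit without VHD baseline 3 and VHD post-induction 2 were chosen after seeing the data. With the animal as a replicate block the mean changes were 2.64, 3.12 and 1.31 for PAEP, SCG3 and CHI3L1. That block was not used for the class differences at each time, and neither tested difference of responses passed with it. The 49 genes called over both classes became 266 with DESeq2, 4 with the animal block, 0 on transcripts and 103 with the term for the 5 and 7 libraries. They became 12, 1 and 0 without LD baseline 2, LD baseline 3 and LD post-induction 2, and 4, 1, 31, 0 and 2 without LD post-induction 3, VHD baseline 1, VHD baseline 2, VHD post-induction 1 and VHD post-induction 3. Within a class the 0 genes called became 50 in LD and 54 in VHD with DESeq2, and in VHD 3 with the term for the 5 and 7 libraries and 1 without VHD post-induction 2, alone or together with VHD baseline 3. The 1 gene called between classes at baseline became 0 with upper-quartile factors, a filter of 1 CPM in 3 libraries, the compared groups alone, transcripts, both added fits, and without any 1 of 5 baseline libraries (not VHD baseline 2). The 0 called post-induction became 1 with DESeq2, no filter, the compared groups alone and both limma fits, and the 0 called for the difference of responses became 1 with DESeq2. Baseline levels of SCG3 rest on at most 24 counts, which limits its ratios.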
